A study of Mus musculus with 20 samples.

Results

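The retinas of Nrl-/- mice were compared with those of wild-type mice at postnatal day 21 (P21), by the RNA-seq levels of every gene in the deposited P21 table. The comparison takes 4 samples, 2 from Nrl-/- and 2 from wild-type retina, of the 20 samples of the series, and all 1497 genes of the table; the tables of both ages hold 1865 different genes. All mice carried the C57BL/6J strain label, and each sample was made from 2 frozen retinas. The series also holds CrxRip/+, CrxRip/Rip and Crx-/- retinas, where CrxRip is a mutant allele of the photoreceptor gene Crx, and every genotype was sampled in duplicate at P2 and at P21. The labels describe the mutant as Nrl-/- in the whole animal, name no cell type or promoter, and give whole retina as the tissue. Beyond the statement that the retinas were independent, nothing separates animals from cultures or batches, so the p-values measure only the spread between samples. That spread was pooled over the duplicates of all 5 genotypes at P21, so each SE and p-value also reflects genotypes outside the comparison.

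NRL is a basic leucine zipper transcription factor of rod precursors. Together with the homeodomain protein CRX it switches on rod genes, among them the nuclear receptor gene Nr2e3, whose product holds cone genes down in rods. Retinas without NRL are known to lack rods and to carry photoreceptors with the character of S cones, the cones that use short-wave opsin. In both rods and cones, light acts through an opsin, the G protein transducin, a cyclic GMP phosphodiesterase and a cyclic GMP-gated channel, and most of these proteins come as a rod form and a cone form made from different genes.

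The values are FPKM, fragments scaled to transcript length and library size, which the authors deposited to 1 decimal. Differences are given as Nrl-/- minus wild type on the scale log2(FPKM + 1), where a difference of 1 is a doubling at high levels and less than the true change at low levels. A gene was called higher or lower at an adjusted p under 0.05 in limma, fitted to the 10 samples of the 5 genotypes at P21 with Benjamini-Hochberg adjustment over the 1497 genes. The table is not the whole transcriptome, since each of its genes passed the authors' thresholds in at least 1 comparison of 2 genotypes. For 602 genes that included Nrl-/- against wild type, and 895 genes entered through other comparisons alone. The values carry no read counts, so sequencing depth is unknown and no counting error is given. Over all genes of the table, FPKM summed to 55335 and 53396 in wild type and 40702 and 39283 in Nrl-/- retina. The duplicates differed by a median of 0.09 log2 units in wild type and 0.11 in Nrl-/- retina. In the other genotypes of the fit the medians were 0.16 in CrxRip/+, 0.17 in CrxRip/Rip and 0.11 in Crx-/- retina.

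The targeted gene was checked first. Nrl stood at 466.1 and 427.6 FPKM in the wild-type samples and at 0.2 FPKM in both Nrl-/- samples. The levels of the labelled mutants and controls were thus far apart, with a difference of -8.54 ± 0.14 (SE, limma adjusted p = 4.08e-09). Crx, used below for comparison with Crx-/- retina, was still listed at 167.9 and 171.4 FPKM in the Crx-/- samples. The table holds 1 value per gene, so it does not show which part of the Crx transcript those reads cover.

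Of the 1497 genes, 605 were higher (40.4%) and 476 were lower (31.8%) in Nrl-/- than in wild-type retina, 72.2% in all. The lower genes summed to 38954 FPKM in wild type and 10067 in Nrl-/- retina, and the higher genes to 7667 and 22313. Changes of at least 2 log2 units were found for 65 higher and 63 lower genes, and changes of at least 4 for 2 higher and 14 lower genes. The median difference over all genes was 0.17. When each sample was rescaled by its median ratio over genes, that median became 0.00 and the calls became 510 higher and 556 lower. The rod and cone phototransduction genes were called in the same direction on the rescaled values. Among the 602 genes that the authors' deposited table selected for this contrast, 588 were called in the same direction here and 0 in the opposite one. The deposited changes come from the same samples, so this is no independent check.

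**Figure D1:**
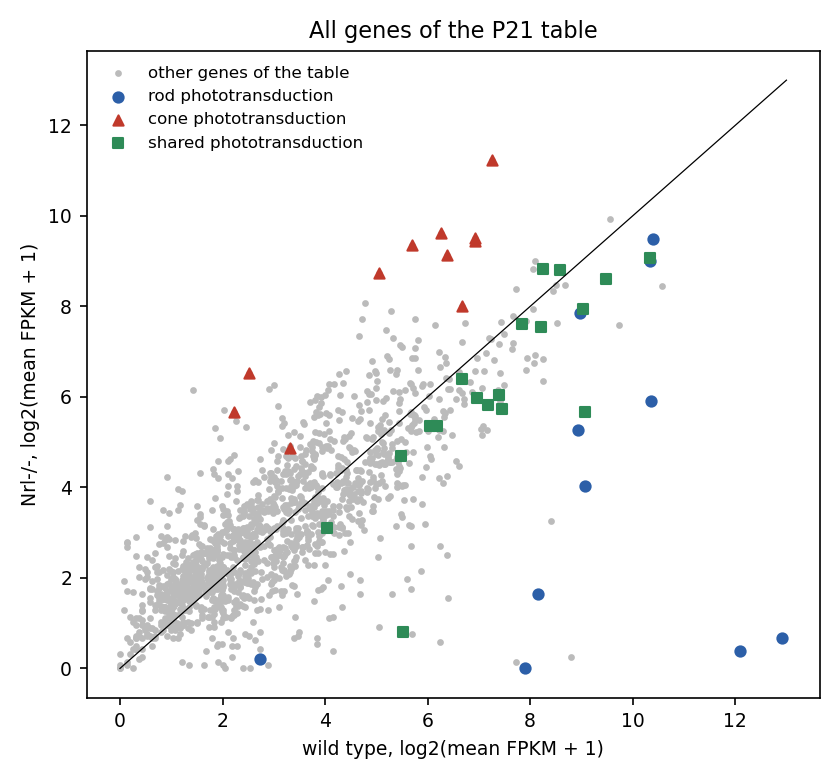
Mean level of each of the 1497 genes in wild-type retina (horizontal) and Nrl-/- retina (vertical), both as log2(mean FPKM + 1) of 2 samples, with the line of equal levels. The 11 rod phototransduction genes lie below the line and the 11 cone phototransduction genes above it. The 18 phototransduction genes shared by rods and cones have a median difference of -0.90 and range from -4.71 to 0.58.

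All 11 rod phototransduction genes in the list were lower in Nrl-/- retina, with a median difference of -4.46 beside 0.17 over all genes. All 11 had entered the table through this same contrast, and 97.7% of the genes that did so were called. The 11 genes together made up 33.6% and 32.8% of the table's FPKM in the wild-type samples and 3.90% and 4.01% in the Nrl-/- samples. The members differed widely: some were nearly gone and others kept a large part of their level. In whole retina, fewer cells of a type and less RNA per cell cannot be told apart.

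Gnat1, the alpha subunit of rod transducin, fell from 4373.3 and 4352 FPKM to 0.3 FPKM in both samples. Cnga1, the alpha subunit of the rod channel, stood at 244.5 and 228.2 FPKM in wild type and was listed at 0 in both Nrl-/- samples, so it has no fold change. Both genes had dropped to the floor of the table, with a limma adjusted p of 8.36e-08 for Gnat1 and 1.96e-09 for Cnga1. Slc24a1, the rod sodium-calcium-potassium exchanger, fell from 293.1 and 275.6 to 2 and 2.3 FPKM. Cngb1, which encodes the channel's beta subunit, was low throughout and fell from 5.9 and 5.4 to 0.2 and 0.1 FPKM.

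A second set of rod genes was reduced but clearly present. The 2 catalytic phosphodiesterase subunits parted from the inhibitory one. Pde6b fell from 554.7 and 524 FPKM to 15.5 and 15.3 FPKM, and Pde6a from 499 and 477.5 to 36.3 and 39.1 FPKM. Pde6g, the inhibitory subunit, fell only from 1345.4 and 1245.8 to 553.4 and 478.3 FPKM, a difference of -1.33 ± 0.15 (SE, limma adjusted p = 8.04e-05) against -5.04 ± 0.19 for Pde6b. The transducin subunits showed the same range. Gnb1, the beta subunit, which many other cells also use, fell from 1365.6 and 1271.1 to 58.7 and 59.3 FPKM, whereas Gngt1, the rod gamma subunit, fell from 516.1 and 483.1 to 231.7 and 226.6 FPKM. Sag, the rod arrestin that ends the opsin signal, changed least of the 11: it fell from 1394 and 1302.6 to 687.4 and 753 FPKM, a difference of -0.90 ± 0.11 (SE, limma adjusted p = 0.000109). The samples of the 2 genotypes overlapped for 0 of the 11 genes. Of all genes 89.5% did not overlap, 50.8% being higher and 38.7% lower in both Nrl-/- samples.

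The cone forms moved the other way. All 11 cone phototransduction genes were higher in Nrl-/- retina, with a median difference of 3.37, and their share of the table's FPKM was 1.41% and 1.35% in wild type and 16.7% in both Nrl-/- samples. With the 11 rod genes left out of the total, the share still went from 2.13% and 2.02% to 17.4% in both samples. The 11 genes showed no overlap between genotypes. Like the rod genes, all 11 had entered the table through this same contrast.

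Opn1sw, the short-wave cone opsin, rose from 164.5 and 141 FPKM to 2501 and 2298.6 FPKM, a difference of 3.97 ± 0.11 (SE, limma adjusted p = 3.67e-08). Opn1mw, the medium-wave cone opsin, rose less, from 103.8 and 97.4 to 232.4 and 278.1 FPKM, a difference of 1.33 ± 0.12. Short-wave opsin accordingly made up 61.3% and 59.1% of the FPKM of the 2 cone opsins in wild type and 91.5% and 89.2% in Nrl-/- retina. The cone transducin genes rose together. Gnat2, its alpha subunit, went from 83 and 68.2 to 805.7 and 764 FPKM, Gnb3, its beta subunit, from 122.8 and 119.1 to 732.8 and 722.3 FPKM, and Gngt2, its gamma subunit, from 52.6 and 48.8 to 655.3 and 658 FPKM. The ratios of their mean FPKM were 10.4, 6.02 and 12.95, a narrower range than that of the rod subunits. Pde6c, the catalytic subunit of cone phosphodiesterase, rose from 30.9 and 33.3 to 425.8 and 429 FPKM. Its inhibitory partner Pde6h rose from 86.3 and 78.4 to 580.2 and 543.3 FPKM. Both cone channel subunits, nearly silent in wild-type whole retina, rose strongly. Cngb3 rose from 4.7 and 4.8 to 99.9 and 83.3 FPKM, and Cnga3 from 3.6 and 3.7 to 52.8 and 46.4 FPKM. Arr3, the cone arrestin, rose from 122 and 118.2 to 678 and 707.8 FPKM. Slc24a2, the cone exchanger, rose least after Opn1mw, from 7.7 and 10.1 to 27.3 and 28.9 FPKM.

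**Figure D2:**
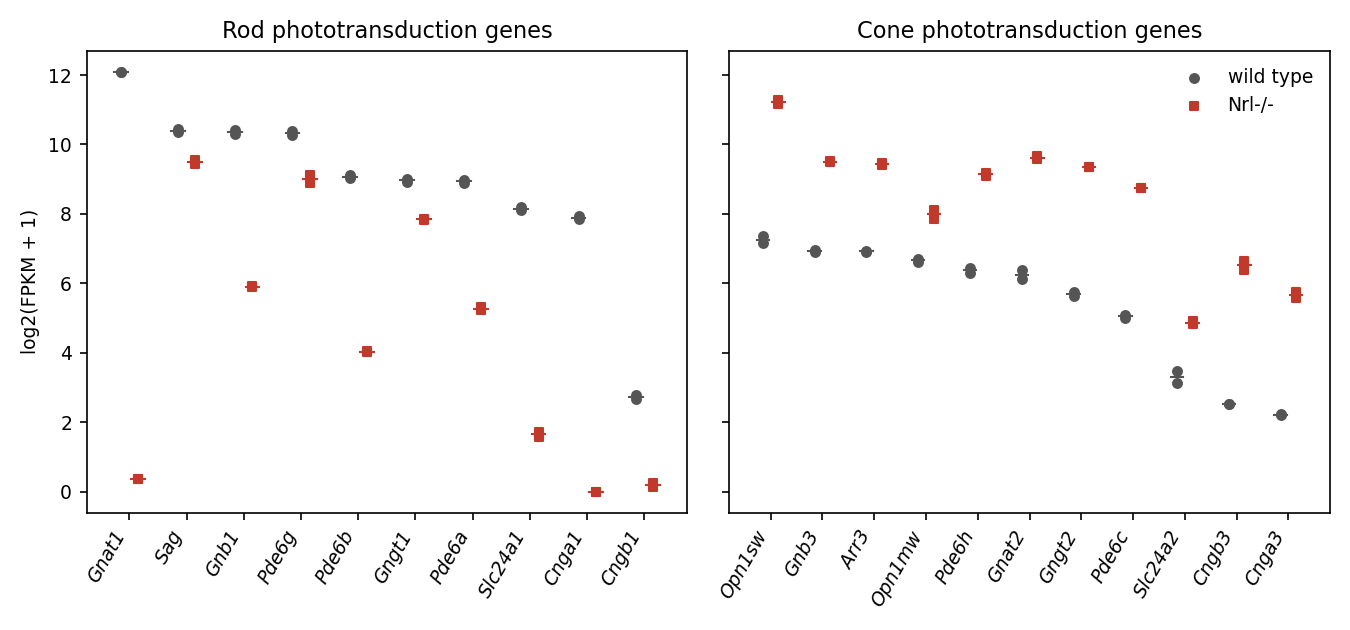
Level of 10 rod (left) and 11 cone (right) phototransduction genes as log2(FPKM + 1) in the 2 wild-type samples (grey circles) and the 2 Nrl-/- samples (red squares), with short lines at the group means. The rod genes range from Gnat1 and Cnga1, at the floor in Nrl-/- retina, to Sag, which stayed within 1 log2 unit, whereas each cone gene is higher in both Nrl-/- samples.

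Set against its cone partner, a rod gene showed how far the balance had turned. FPKM is scaled to transcript length, so the ratio compares levels per length. Gnat1 exceeded Gnat2 by 52.7 and 63.8 times in the wild-type samples, and Gnat2 exceeded Gnat1 by 2686 and 2547 times in the Nrl-/- samples. Gnb1 stood at 11.1 and 10.7 times Gnb3 in wild type, and Gnb3 at 12.5 and 12.2 times Gnb1 in Nrl-/- retina. By contrast, 2 pairs ended near equality. The ratio of Sag to Arr3 was 11.4 and 11.0 in wild type and 1.01 and 1.06 in Nrl-/- retina, and the ratio of Pde6g to Pde6h went from 15.6 and 15.9 to 0.954 and 0.880. Thus the Nrl-/- retina held about as much arrestin RNA of the rod form as of the cone form, with almost no alpha transducin RNA of the rod form.

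The promoters of 4 of these genes are shown because their genes moved in opposite directions. RefSeq promoters (GRCm38.p6, from 250 bases before to 50 bases after the start) were matched by symbol for 1162 of the 1497 genes, and both strands were searched for the CRX core TAATCC and for TGCTGA, the core half-site of the NRL response element. The authors' genome build is not given in the sources used here, and these coordinates belong to the RefSeq table alone. The 250 bases before the start are printed 5′ to 3′ on the gene's strand, with matches in capitals (GGATTA and TCAGCA are the same motifs on the other strand):
Sag (chr1:87803430-87803679, plus strand): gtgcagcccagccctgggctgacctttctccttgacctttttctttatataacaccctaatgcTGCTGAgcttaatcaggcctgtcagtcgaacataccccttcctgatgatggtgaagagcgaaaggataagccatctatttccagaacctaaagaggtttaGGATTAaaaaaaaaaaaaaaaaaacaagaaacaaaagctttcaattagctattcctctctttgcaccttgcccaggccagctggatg
Pde6b (chr5:108388123-108388372, plus strand): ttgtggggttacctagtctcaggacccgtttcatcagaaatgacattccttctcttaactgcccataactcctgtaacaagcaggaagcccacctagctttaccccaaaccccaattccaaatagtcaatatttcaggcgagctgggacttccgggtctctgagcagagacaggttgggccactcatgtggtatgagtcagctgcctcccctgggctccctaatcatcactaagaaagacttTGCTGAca
Opn1sw (chr6:29380514-29380763, minus strand): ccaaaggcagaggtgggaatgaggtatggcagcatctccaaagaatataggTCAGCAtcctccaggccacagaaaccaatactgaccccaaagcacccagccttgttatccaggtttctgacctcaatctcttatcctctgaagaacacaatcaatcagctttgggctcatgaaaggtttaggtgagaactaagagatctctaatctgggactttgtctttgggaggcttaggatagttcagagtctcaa
Gnat2 (chr3:108092816-108093065, plus strand): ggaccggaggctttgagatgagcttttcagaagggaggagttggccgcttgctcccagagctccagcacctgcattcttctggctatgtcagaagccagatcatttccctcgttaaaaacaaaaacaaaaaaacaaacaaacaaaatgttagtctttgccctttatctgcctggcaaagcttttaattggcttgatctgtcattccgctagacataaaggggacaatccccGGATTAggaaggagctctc
The Sag promoter held both motifs, the Pde6b and Opn1sw promoters the NRL half-site only, and the Gnat2 promoter the CRX core only. In the whole window, the CRX core was found in 12.1% of the promoters of lower genes, 5.94% of those of higher genes, 10.05% of those of genes not called and 7.06% of all promoters. The NRL half-site was found in 17.5%, 17.97%, 18.5% and 19.5% of the same sets. For the rod phototransduction genes with a promoter in the table, 4 of 7 promoters held the CRX core and 2 of 7 the NRL half-site, and of the 9 promoters of 7 cone genes 1 held the CRX core and 1 the half-site. The half-site was thus no more frequent among lower genes than among all promoters. Such matches describe the letters in the window, not binding.

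In a further list of genes associated with rods, 14 of 16 were lower, 0 were higher, and the median difference was -2.15. Over all genes 31.8% were lower and 40.4% higher. Of these 16, 13 had entered the table through this same contrast. The lists overlap: Pdc and Gucy2f also stand among the shared phototransduction genes, Rom1 and Rp1 among the outer segment genes, and Nr2e3 and Samd7 among the transcription factors. Reep6, a membrane-trafficking protein of rods, fell from 343.2 and 333.1 to 9.3 and 7.9 FPKM. Guca1b, which activates guanylate cyclase, fell from 548.9 and 526.7 to 47.8 and 51.2 FPKM. Gucy2f, one of the photoreceptor guanylate cyclases, fell from 45.9 and 43.4 to 0.7 and 0.8 FPKM. Other members again kept much of their level: Pdc, or phosducin, a binding partner of transducin beta and gamma, fell from 1210.3 and 1380.1 to 495.3 and 580.1 FPKM. The 2 members not called were Ppef2, at 65.7 and 57.6 in wild type and 53.5 and 49 in Nrl-/- retina, and Elfn1, a synaptic adhesion protein of rods, at 19.4 and 18.3 and at 20 and 19.7 FPKM. The groups did not overlap for either gene, but the differences of -0.26 and 0.07 did not pass the test; on the rescaled values Ppef2 was lower (limma adjusted p = 0.00505).

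All 14 other cone genes in the table, of 21 in the list, were higher, beside 40.4% of all genes, with a median difference of 2.52. Of these, 13 had entered the table through this same contrast, so their calls were close to set in advance. List members absent from the table could not count either way. The largest rise was that of Fabp7, a fatty-acid-binding protein, which went from 2 and 1.4 to 76.9 and 63.6 FPKM, a difference of 4.72 ± 0.27 (SE, limma adjusted p = 1.57e-06). Fabp7 also stands on the Muller glia list, and Gnb3 and Cnga3 also stand on the cone phototransduction list. Otop3, a proton channel gene, rose from 3.2 and 3 to 53 and 50.3 FPKM, and Ccdc136 from 26.1 and 26.8 to 265 and 270.7 FPKM. Kcne2, a potassium channel beta subunit, rose from 25.3 and 23.3 to 170.6 and 153.5 FPKM. Pygm, the muscle form of glycogen phosphorylase, rose from 20.1 and 20.5 to 94 and 93.7 FPKM. These values leave no overlap between the genotypes. The smallest rise on the list was that of Hspb6, a small heat shock protein, by 0.78 log2 units.

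Genes that rods and cones share fell as a group but by less. Of 18 members in the table, 14 were lower, 1 was higher and 3 were not called, with a median difference of -0.90. Over all genes 31.8% were lower and 40.4% higher, and 9 of the 18 had entered the table through this same contrast. Rcvrn, or recoverin, a calcium sensor that acts on opsin kinase, fell from 531 and 520.9 to 269.4 and 221.6 FPKM. Grk1, that kinase, fell from 296.9 and 292.2 to 192.7 and 176 FPKM. Abca4, a retinoid transporter of the disc rim, fell from 168.6 and 166.1 to 62.8 and 66.9 FPKM. None of these 3 approached 0, but Gucy2f, described above and also on this list, did. Its fall of -4.71 log2 units was the largest on the list. Rcvrn was not called once any 1 of the 4 samples was left out, although its difference then stayed between -0.96 and -1.24. With the replicate number as a block it was not called either (limma adjusted p = 0.0559). Its SE of 0.40 also takes in the CrxRip/+ samples, at 131.1 and 60.2 FPKM, and the CrxRip/Rip samples, at 4 and 9.8 FPKM. Guca1a, the second cyclase activator, stood at 403.7 and 362.2 in wild type and at 422.6 and 468.3 FPKM in Nrl-/- retina, and it was not called (limma adjusted p = 0.168). Its relative Guca1b fell by 3.42 log2 units, so the 2 activators parted. Aipl1, a chaperone for phosphodiesterase, was the member that rose, from 323.4 and 282.2 to 467.8 and 434 FPKM; on the rescaled values it was not called (limma adjusted p = 0.0574), and 16 members were lower.

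Among 30 outer segment and cilium genes, 17 were lower, 6 were higher and 7 were not called, with a median difference of -0.54. Over all genes 31.8% were lower and 40.4% higher, and 9 of the 30 had entered the table through this same contrast. Both disc rim proteins fell. Prph2, or peripherin, which shapes the disc rim, fell from 1599.7 and 1439 to 363.4 and 336.7 FPKM, and its partner Rom1 from 879.8 and 818.3 to 204 and 178.3 FPKM. Rp1, a microtubule protein of the outer segment axoneme, fell from 320.9 and 288.1 to 88.8 and 73.6 FPKM. Fscn2, a retinal fascin that bundles actin, fell from 40.2 and 36.8 to 1.8 and 2.5 FPKM. Genes of the connecting cilium were among those not called: Rpgrip1 stood at 141.4 and 158.6 in wild type and 153.4 and 155.4 FPKM in Nrl-/- retina, and Tulp1 at 273.3 and 255.5 and at 237.4 and 253.4 FPKM, though Tulp1 was lower on the rescaled values (limma adjusted p = 0.0457). In the opposite direction, Cdhr1, a cadherin at the base of the outer segment, rose from 213.3 and 208.9 to 340.8 and 330.8 FPKM. Rbp3, the retinoid-binding protein of the matrix around photoreceptors, rose from 736.2 and 778.9 to 946.2 and 1015.7 FPKM, a call that was lost on the rescaled values and without any 1 of the 4 samples (limma adjusted p from 0.0507 to 0.282). Mfrp and C1qtnf5, which are made from 1 shared transcript, were listed with identical values, so the 6 higher genes hold 1 observation counted under 2 names. The count of 6 became 3 without either Nrl-/- sample or without wild-type replicate 1.

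Of the 14 photoreceptor transcription factors in the table, 6 were lower, 6 higher and 2 not called, not far from the 31.8% lower and 40.4% higher over all genes. Nr2e3 fell from 223.7 and 198.8 to 0 and 0.2 FPKM. Esrrb, a nuclear receptor that supports rod energy genes, fell from 71.7 and 95.1 to 1.9 and 2 FPKM, and Mef2c, a MADS-box factor, from 17.4 and 16 to 1.2 FPKM in both samples. Rorb, which acts above Nrl in rod development, was reduced less, from 25.5 and 34.3 to 11.9 and 13.6 FPKM, as was Samd7, a repressor of non-rod genes, from 41.6 and 43.5 to 20.2 and 19.1 FPKM. Crx itself was close to its wild-type level, at 350.7 and 343.9 against 341.9 and 300 FPKM (difference -0.12 ± 0.13, SE, limma adjusted p = 0.426). Pias3, a SUMO ligase that acts with CRX and NRL, stood at 34.7 and 32.4 against 31.6 and 31 FPKM and was not called. On the rescaled values both were lower, Crx by -0.35 and Pias3 by -0.32 (limma adjusted p = 0.0280 and 0.0143).

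The factors that rose included the cone regulators. Rxrg, a retinoid receptor of cones, went from 2.5 and 2.6 to 20 and 17.4 FPKM, and Sall3, needed for cone gene expression, from 0.9 in both samples to 6.6 and 6.4 FPKM. Lhx4, a LIM homeodomain factor of bipolar cells and cones, went from 5.4 and 5.9 to 24.9 and 22.6 FPKM. Prdm1, which steers precursors away from bipolar fate, went from 3.9 and 3.8 to 16.5 and 14.2 FPKM. The rise of Otx2, which acts above Crx, was smaller, from 81 and 80.1 to 126.3 and 107.2 FPKM (difference 0.53 ± 0.11, SE, limma adjusted p = 0.00224). Ankrd33, a photoreceptor regulator, rose from 78.2 and 71.2 to 99.7 and 100.5 FPKM, a difference of 0.42 that was not called with a pseudocount of 0.1, on the rescaled values or without any 1 of the 4 samples (limma adjusted p from 0.0515 to 0.291).

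**Figure D3:**
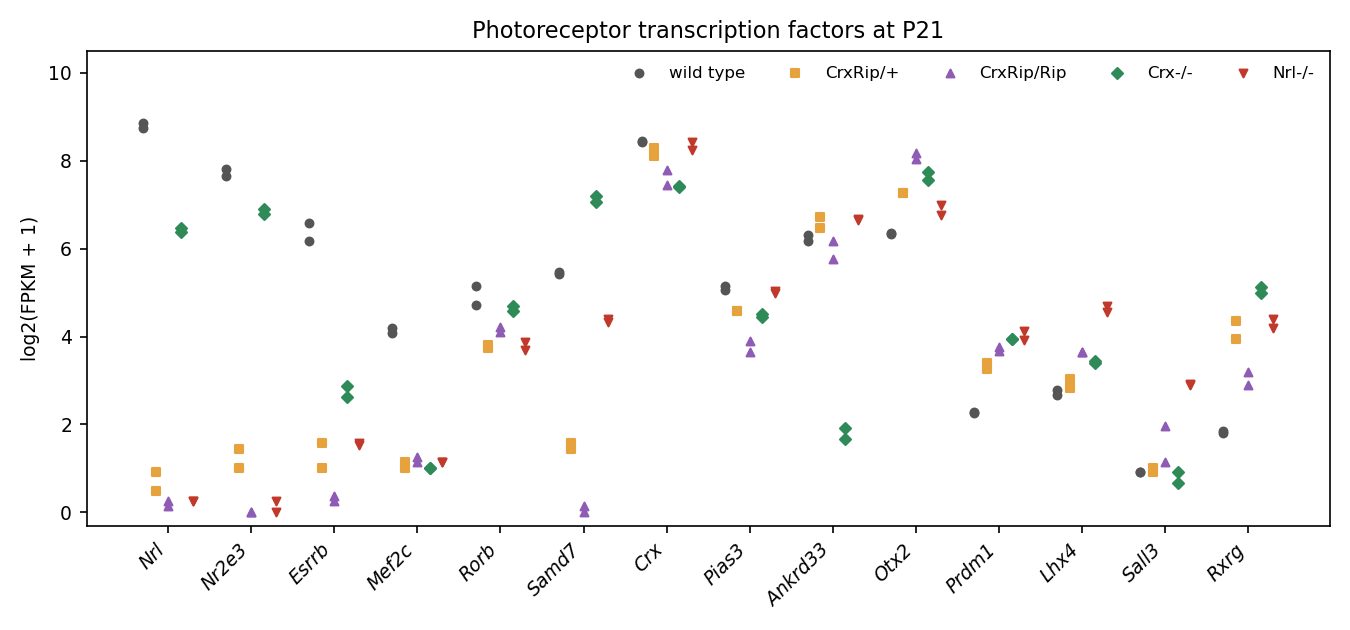
Level of 14 photoreceptor transcription factors as log2(FPKM + 1) in both P21 samples of each of the 5 genotypes, ordered by the Nrl-/- difference from wild type. Nrl and Nr2e3 are near 0 in Nrl-/- retina (red) and between 82 and 118 FPKM in Crx-/- retina (green), and the 2 Nrl-/- samples are the highest for Sall3 and Lhx4.

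Crx-/- retina is the closest comparison for separating the 2 photoreceptor regulators, and the same fit gave 590 genes higher (39.4%) and 384 lower (25.7%) in Nrl-/- than in Crx-/- retina, 65.1% in all. This contrast shares the Nrl-/- samples with the contrast to wild type, and the levels are set side by side. The cone genes separated the 2 mutants most. Opn1sw stood at 2.7 FPKM in both Crx-/- samples, a difference of 9.34 ± 0.11 from Nrl-/- (SE, limma adjusted p = 4.61e-10), and Opn1mw at 0.6 and 0.8 FPKM. In all, 10 of 11 cone phototransduction genes were higher in Nrl-/- than in Crx-/- retina; Slc24a2 was not called, at 22.2 and 23.8 FPKM in Crx-/- retina. Of the rod phototransduction genes, 7 of 11 were lower in Nrl-/- than in Crx-/- retina and 3 were higher. Cnga1 was at 59.6 and 54.3 FPKM and Pde6b at 189.6 and 163.3 FPKM in Crx-/- retina, levels that Nrl-/- retina did not reach. The reverse held for Sag, at 440.6 and 379.8 FPKM, Pde6g, at 108.6 and 89.8 FPKM, and Gngt1, at 146.6 and 128.7 FPKM in Crx-/- retina. Those are the 3 rod phototransduction genes with the smallest falls from wild type to Nrl-/- retina. Shared phototransduction genes were mostly higher in Nrl-/- than in Crx-/- retina, 12 of 18 with 1 lower, and Rcvrn stood at only 7.5 and 7 FPKM in Crx-/- retina.

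Of 14 photoreceptor synapse genes in the table, 5 were lower, 2 higher and 7 not called, beside 31.8% lower and 40.4% higher over all genes. Their median was -0.13, and on the rescaled values 9 were lower. Slc17a7, the vesicular glutamate transporter of photoreceptors, stood at 366.1 and 363 in wild type and at 360.2 and 351.9 FPKM in Nrl-/- retina (limma adjusted p = 0.796), though the rescaled values called it lower by -0.26 (limma adjusted p = 0.0451). Cabp4, a calcium-binding partner of the terminal's calcium channel, fell from 78.6 and 69.6 to 40 and 34.7 FPKM. Cacnb2, the beta subunit of that channel, fell from 42.3 and 39.6 to 20.3 and 20.1 FPKM. Its pore subunit Cacna1f was not called, at 50.5 and 53.9 against 45.1 and 50.5 FPKM, except on the rescaled values (limma adjusted p = 0.0261). The member with the clearest rise besides Elfn2 was Slc1a7, a glutamate transporter with chloride conductance, from 38.5 and 36.2 to 100.7 and 91.5 FPKM.

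Ion channel genes gave 6 higher, 6 lower and 6 not called of 18, shares close to the 40.4% higher and 31.8% lower over all genes. Kcnj14, an inward rectifier potassium channel, fell from 74.8 and 74.3 to 0.5 FPKM in both samples. Kcnv2, a potassium channel subunit of photoreceptors, fell less, from 127.7 and 119.3 to 67.2 and 56.1 FPKM. Higher members were Cacna1h, a T-type calcium channel, from 12 and 13.5 to 47.7 and 44.6 FPKM, and Chrnb4, a nicotinic receptor subunit, from 0.7 and 0.9 to 10.7 and 9.8 FPKM.

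Energy metabolism genes gave 5 higher, 6 lower and 3 not called of 14, which is also near the shares over all genes. Pfkfb2, which sets the level of a glycolysis activator, fell from 91.3 and 93.9 to 23 and 22.8 FPKM, and Hk1, a hexokinase, from 131.3 and 134.4 to 72.6 and 71.7 FPKM. Ckb, brain creatine kinase, rose from 275.5 and 253.2 to 469.8 and 441.5 FPKM, and Elovl2, which extends very long chain fatty acids, from 18.5 and 15.6 to 78.1 and 76.5 FPKM. Ldha, a lactate dehydrogenase subunit, was not called at 400.2 and 422.8 against 368.7 and 344 FPKM.

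Markers of the other retinal cells were sparse in the table, since only genes that changed in some comparison are in it. Of 34 bipolar cell genes 8 were present, 3 higher and 2 lower, not far from the 40.4% higher and 31.8% lower over all genes. Cabp5, a calcium-binding protein of bipolar cells, rose from 32.5 and 45.6 to 159.1 and 155 FPKM, and Nfasc fell from 40 and 42.5 to 15.4 and 15 FPKM, while Sebox and Car8 were not called, Car8 being lower on the rescaled values alone (limma adjusted p = 0.0322). The lower count of 2 became 1 without either Nrl-/- sample or without wild-type replicate 2. Of 17 horizontal cell genes 5 were present and only Sphkap was called, rising from 53.9 and 52 to 211.7 and 209.9 FPKM. Amacrine genes were represented by 2 of 24, with Sst lower (not so without any 1 of the 4 samples, limma adjusted p from 0.0709 to 0.189), and ganglion cell genes by 0 of 20.

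Among 20 gliosis and stress genes, 6 were higher, 2 lower and 12 not called, beside 40.4% higher and 31.8% lower over all genes, with a median of 0.50 beside 0.17. Gfap, the filament protein of reactive glia, rose from 4.5 and 3.7 to 9.6 and 8.7 FPKM, Stat3, a cytokine signal factor, from 8.5 and 9.4 to 19.8 and 17.9 FPKM, and Socs3, its feedback inhibitor, from 0.6 and 0.5 to 4.5 and 4 FPKM. Crx-/- retina stood higher for Gfap, at 26.8 and 24.6 FPKM. In Nrl-/- against Crx-/- retina 13 of the 20 genes were lower and 3 higher, beside 25.7% lower and 39.4% higher over all genes. The stress genes Atf3 and Hspa1a were the 2 lower ones, and Atf3 was no longer called without Nrl-/- replicate 2 or without either wild-type sample, which left 1. Of 9 Muller glia genes 4 were higher, Fabp7 among them, which is near the 40.4% over all genes. That count fell most without Nrl-/- replicate 2 or without wild-type replicate 2. Sox9, a nuclear factor of Muller glia, was not called at 2.1 and 2.4 against 2.6 and 2 FPKM. Microglial genes were at low levels, and 2 of 5 were higher, Ctss and Ly86, again near the 40.4% over all genes. Ly86 alone was higher on the rescaled values, and the count fell without Nrl-/- replicate 1 or without either wild-type sample.

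Of 7 cell death genes, 2 were higher and 2 lower. The shares over all genes, for this list and the next, were 40.4% higher and 31.8% lower. Cdkn1a, a cell cycle inhibitor under p53, was called higher at 0.9 in both wild-type samples and 3.8 and 1.5 FPKM in Nrl-/- retina. Without Nrl-/- replicate 1 or either wild-type sample Cdkn1a was not called, which left 1 higher gene. Gadd45a, a growth arrest gene, fell from 17.6 and 14.8 to 4.8 and 4.7 FPKM. Among 6 progenitor and cell cycle genes, Six6, Dll1, Btg2 and Notch1 were higher and Ccna2 and Gadd45a lower. Six6, an eye field homeobox factor, rose from 9.9 and 11 to 32.1 and 36.1 FPKM.

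Immediate early genes, which respond within minutes to stimulation, gave 6 higher and 3 lower of 9, beside 40.4% higher and 31.8% lower over all genes. On the rescaled values 4 were higher and 3 lower. Egr1, a zinc finger factor, rose from 3.8 FPKM in both wild-type samples to 27.8 and 58.8 FPKM, and Nr4a1, an orphan receptor, from 7.6 and 7.3 to 26.9 and 23.1 FPKM. Fos rose from 6.4 and 6.1 to 9.7 and 11.8 FPKM. The Nrl-/- samples lay far apart for Egr1, though both were above wild type. The lower count of 3 fell to 1 without either Nrl-/- sample or without wild-type replicate 2, and to 0 without wild-type replicate 1.

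Genes typical of the tissues next to the retina differed between samples. Of 29 pigment epithelium (RPE) and pigment genes 11 were in the table, 9 higher and 1 lower, beside 40.4% higher and 31.8% lower over all genes. Rpe65, the retinoid isomerase of the RPE, stood at 0.5 and 1.1 in wild type and at 4.3 and 2.8 FPKM in Nrl-/- retina, and Ttr, or transthyretin, at 3.2 and 7.8 and at 20.1 and 12.8 FPKM. For both genes wild-type replicate 1 was the lowest sample, and the RPE count of 9 became 3 without it, 2 without Nrl-/- replicate 1 and 5 without Nrl-/- replicate 2. The list's lower member, Cst3, is a cystatin that many retinal cells make. The summed level of the list was 305.6 and 280.8 FPKM in wild type and 181.1 and 173.7 FPKM in Nrl-/- retina, mostly Cst3. Of 12 vascular genes 8 were higher and 1 lower, by at most 0.69 log2 units, beside the same shares over all genes. On the rescaled values 3 were higher, and leaving out wild-type replicate 1 left 1 higher, leaving out Nrl-/- replicate 1 left 3, and leaving out either other sample left 5. The lower member Slc16a1 was not called without Nrl-/- replicate 2 or without either wild-type sample.

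Blood and lens genes also varied between samples of 1 genotype. The 5 globin genes, whose near-identical copies share reads, summed to 26.1 and 37.6 FPKM in wild type and 44.9 and 92 FPKM in Nrl-/- retina, with Nrl-/- replicate 2 the highest. The 2 called higher, Hbb-bt and Hbb-b2, were not called without that sample or without either wild-type sample. The 4 lens crystallin genes in the table summed to 41.6 and 9.7 FPKM in wild type and 0.2 and 2.4 FPKM in Nrl-/- retina, with wild-type replicate 1 the highest, and none was called. Cryaa, the alpha crystallin, stood at 21.2 and 5.4 FPKM against 0.1 and 1.1 FPKM. Whether these levels come from adjacent tissue, and their part in the other results, was not tested.

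**Figure D4:**
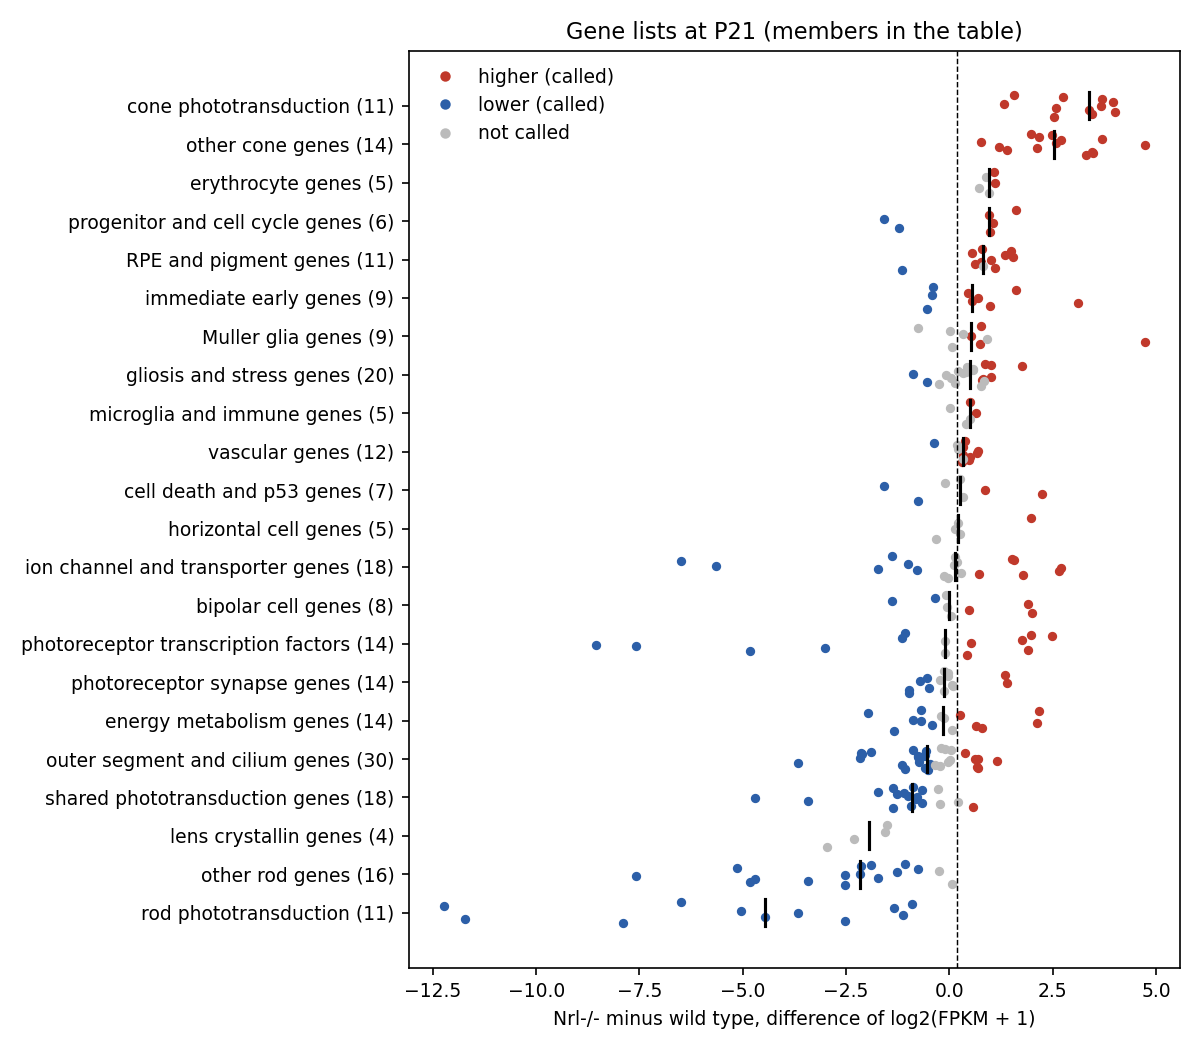
Difference between Nrl-/- and wild-type retina in log2(FPKM + 1) for every member in the table of each gene list with at least 3 members there (number in brackets). Red and blue points are members called higher and lower by limma, grey points were not called, short black lines are list medians and the dashed line is the median of all 1497 genes, 0.17; the cone and rod phototransduction lists lie at opposite ends, at 3.37 and -4.46.

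Outside the lists, the largest falls included genes of varied function. Susd3, a sushi domain protein, fell from 54.1 and 47.1 to 0.7 FPKM in both samples. Aqp1, a water channel, fell from 32 and 32.1 to 0.9 FPKM, and Tnfaip3, an inhibitor of NF-kappa-B signalling, from 75.6 and 74.3 to 5.4 and 5.6 FPKM. The levels in Crx-/- retina were low as well, with Susd3 at 0.3 and 0.2, Aqp1 at 0.5 and 0.7 and Tnfaip3 at 5.5 and 5.6 FPKM. Glb1l2, a galactosidase-like protein, was lower in Nrl-/- than in Crx-/- retina. It fell from 52.7 and 47.4 to 2.4 FPKM in both Nrl-/- samples and stood at 20.2 and 18.3 FPKM in Crx-/- retina (limma adjusted p = 3.25e-07).

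The largest rises outside the lists included receptors, enzymes and developmental factors. Cckbr, a cholecystokinin receptor, rose from 3 and 4.5 to 51.3 and 44.3 FPKM. Gulo, an enzyme of vitamin C synthesis, rose from 7.5 and 6.5 to 84.9 and 66.3 FPKM, and Eya1, a transcription cofactor of eye development, from 0.5 in both samples to 12.2 and 11.8 FPKM. Crx-/- retina was also above wild type for these genes, at 24.3 and 26.7, 57.5 and 48.2 and 6.9 and 6.3 FPKM. Calu, a calcium-binding protein of the secretory pathway, was different. It rose from 39.6 and 36.1 to 254 and 217.9 FPKM in Nrl-/- retina and stood at 44.1 and 37.1 FPKM in Crx-/- retina, a difference of 2.51 ± 0.12 between the mutants (SE, limma adjusted p = 1.42e-06). Crxos, the gene opposite Crx, rose from 3 and 2.5 to 23.4 and 22.6 FPKM; whether reads were counted by strand is not given, so Crx and Crxos reads may not be separated.

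At P2, when rods are still being made, 198 of the P21 genes were also in the deposited table. The 2 tables were normalised separately, so only the difference within each age is compared. At P2 it was taken between log2(mean FPKM + 1) of the groups, and at P21 between their mean log2(FPKM + 1). For 50 genes the Nrl-/- samples lay above both wild-type samples at both ages, for 53 below at both, for 41 below at P2 and above at P21, and for 3 above at P2 and below at P21. The background is high: in the P2 table of 566 genes the samples of the 2 genotypes failed to overlap for 91.9%, with Nrl-/- higher for 24.2% and lower for 67.7%, and in the P21 table for 89.5%, higher for 50.8% and lower for 38.7%. Pdc stood at 129.4 and 155.5 FPKM in wild type and 2.8 and 2.9 FPKM in Nrl-/- retina at P2, a difference of -5.22 that compares with -1.27 at P21. Gngt1 had likewise been nearly gone at P2, at 11 and 13.9 against 0.4 and 0.5 FPKM, and Sag at 46.4 and 56.8 against 1.1 and 0.8 FPKM. These are rod genes that the P21 Nrl-/- retina expressed at a large part of the wild-type level. Pde6g, also kept in large part at P21, had not been nearly gone at P2. It stood there at 30.3 and 38.8 against 25.8 and 27.3 FPKM, a difference of -0.37 beside -1.33 at P21. Pde6b was low at both ages, at 14.4 and 17.7 against 0.1 and 0 FPKM at P2. Among cone genes, Pde6c was already raised at P2, at 2.1 and 2.3 against 7.1 and 8.2 FPKM, whereas Opn1sw was at 40.6 and 43 against 39.5 and 40.5 FPKM. No test of the change between ages was made.

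**Figure D5:**
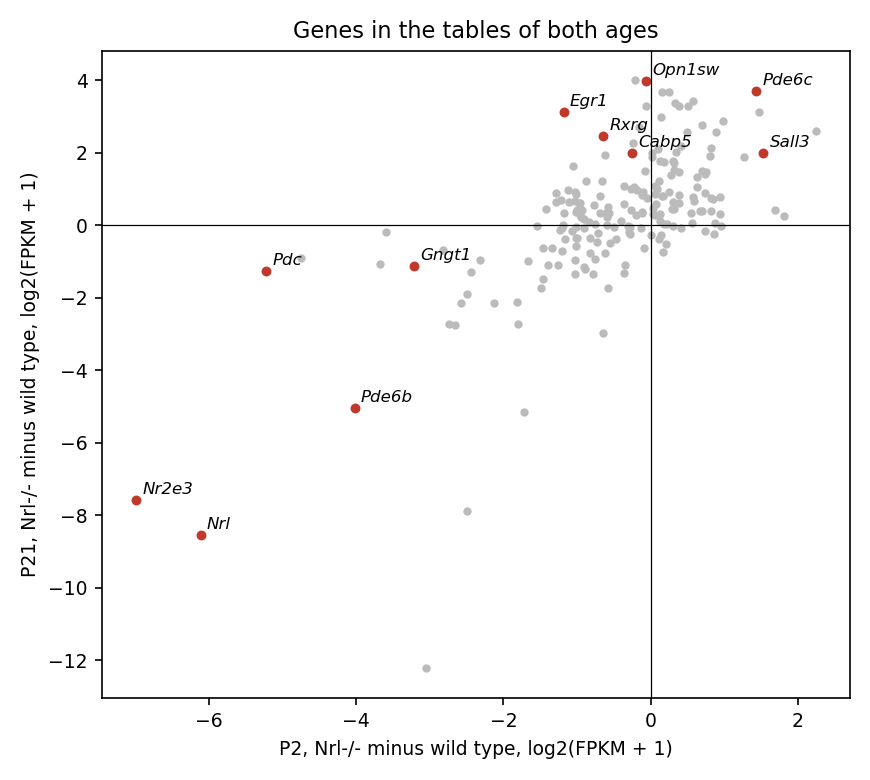
Difference between Nrl-/- and wild-type retina in log2(FPKM + 1) at P2 (horizontal) and P21 (vertical) for the 198 genes in both tables, with 11 genes named. The P2 values are differences of log2(mean FPKM + 1), and the P21 values are differences of mean log2(FPKM + 1). Nrl, Nr2e3 and Pde6b are low at both ages, Pdc and Gngt1 are much lower at P2 than at P21, and Opn1sw differs little at P2 and by 3.97 at P21.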

How the data were processed

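RNA was sequenced from whole mouse retina with directional libraries, per the labels' protocols. The authors used DESeq at some step, per the submitters' processing notes, which give no version. No aligner, annotation or genome build is named in the labels or file headers. The authors deposited FPKM to 1 decimal for each sample, with p-values (adjusted) and log2 fold changes for each pair of genotypes. Every gene in the table has an adjusted p under 0.05, an absolute log2 change of 1 or more and 2 or more FPKM on average in some pair. From the FPKM, limma 3.58.1 (R 4.3.3) was run on log2(FPKM + 1) with 1 term for each of 5 genotypes, a variance trend and Benjamini-Hochberg adjustment over 1497 genes, and was tested on simulated data. Permutation was not used, since with 2 samples in each group an exact p is at least 0.333. Symbols were updated through RefSeq accessions, which matched for 1485 genes. Genes named are list members or, outside the lists, those among the 15 largest called falls and 15 largest called rises (group mean of 5 FPKM or more), the 10 most abundant genes not called and the 5 that differ most each way from Crx-/-. A few list members are not reported here by name. The members and lists were chosen with earlier results of these data known. Alternatives were a pseudocount of 0.1, a low-value filter (mean of 1 FPKM), rescaling by median ratios, fewer samples, a replicate block and no trend. Of the 6 sex-linked genes listed, 0 were in the table.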

Additional observations from a re-analysis of the deposited data

Results flagged for a closer look

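For 7 genes of the report both Nrl-/- samples were below both wild-type samples at P2 and above them at P21. The difference between the ages was not tested, the tables of the 2 ages were normalised separately, and samples that do not overlap are the rule in both tables (91.9% of genes at P2 and 89.5% at P21). The short-wave opsin gene Opn1sw differed by -0.062 log2 units at P2, with 40.6 and 43 FPKM in wild type and 39.5 and 40.5 FPKM in Nrl-/- retina, and by 3.97 at P21. Rxrg, the cone retinoid receptor, differed by -0.646 at P2, with 8.5 and 8.9 against 5.5 and 4.9 FPKM, and by 2.47 at P21. The bipolar gene Cabp5 went from -0.253 at P2 to 2.00 at P21. Of the immediate early genes, Egr1 went from -1.18 at P2, with 3.4 and 3.9 against 1.1 and 1 FPKM, to 3.11 at P21, and Btg2 from -1.12 to 0.976. The regulator Ankrd33 went from -0.274 to 0.419. Guca1a, the cyclase activator, went from -0.601 to 0.218 and was not called at P21.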

How the results depend on the processing

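The counts of genes called stayed within 1.5 times under every alternative: 593 to 657 higher and 467 to 500 lower than wild type with another pseudocount, the low-value filter, the 2 genotypes alone, no trend and the replicate block, 510 and 556 after rescaling, and 511 to 539 and 408 to 438 with 1 sample left out. Against Crx-/- the rescaled counts were 491 and 463, and those with 1 sample left out 502 to 534 and 298 to 328. All 11 rod genes stayed lower and all 11 cone genes higher in every alternative. The labels do not say that replicate numbers mark a shared animal, litter or day, and the deviations of same-numbered samples correlated at -0.30 to 0.24 over the 10 pairs of genotypes (0.054 for wild type and Nrl-/-), so the numbers were not taken as pairs. A fit with the replicate number as a block gave 596 higher and 472 lower genes, with 2 horizontal cell genes higher; Rcvrn (adjusted p = 0.0559) and Ankrd33 (0.0576) were not called by limma with the block. The median difference over all genes was 0.23 with a pseudocount of 0.1, 0.0040 after rescaling and 0.15 to 0.17 with 1 sample left out. Of the 117 genes named, 103 were called against wild type: 89 in every alternative, 14 not in all, and 0 changed direction.

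After rescaling, 0 shared phototransduction genes and 3 vascular genes were higher, 9 synapse genes and 1 horizontal cell gene were lower, 1 microglial gene was higher and 0 globin genes were. In the fit of the 2 genotypes alone, 13 gliosis, 2 horizontal cell, 1 cell death and 0 globin genes were higher, and 1 Muller glia and 2 lens genes lower. A pseudocount of 0.1 gave 0 globin genes higher and 1 lens gene lower. With 1 sample left out, the higher counts ranged as follows: outer segment and cilium 3 to 5, Muller glia 2 to 3, microglia and immune 1 to 3, cell death and p53 1 to 2, RPE and pigment 2 to 6, vascular 1 to 5 and erythrocyte 0 to 2. The lower counts ranged as follows: bipolar cell 1 to 2, gliosis and stress 1 to 2, microglia and immune 0 to 1, vascular 0 to 1 and immediate early 0 to 1. Where a sample was left out its group kept 1 sample, which was assumed to vary like the others. The depth behind the FPKM is unknown, and values below 1 FPKM rest on 1 decimal.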
